A study of Homo sapiens with 18 samples.

Results

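Doxycycline was given to KRAB-D9 cells without interferon, and the RNA of these cells was compared with that of untreated KRAB-D9 cells. The comparison covers 4 of the 18 libraries, taken by their labels alone, 2 per group. The count table held 41285 genes, and 22143 of them passed a filter on low counts and were tested. KRAB-D9 is a derivative of K562, a human chronic myeloid leukaemia line with erythroid features, and doxycycline at 2 µg/mL switches on dCas9-KRAB in it. dCas9-KRAB is a Cas9 protein that cannot cut, fused to the KRAB repressor domain; both groups carry it, and the untreated group received no drug. SAMD9 is the gene named in the study's title. The guide sequence, whether KRAB-D9 is 1 clone, where its constructs sit, and how long doxycycline was given without interferon were not found in these sources. Of the other groups, KRAB-D9 cells received interferon alpha (IFN) at 1000 U/mL for 24 hours, alone or after 24 hours of doxycycline that was then continued. VPR-D9 cells, in which doxycycline induces the activator dCas9-VPR, were untreated or in the doxycycline groups D2000 and D6, codes whose meaning is not given here. Parental K562 cells, untreated or given the same IFN treatment, complete the 9 groups of the fit, and only the untreated ones are used below. Parental cells given doxycycline were not analysed here, so effects of the drug, of the fusion protein and of lower SAMD9 cannot be told apart.

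SAMD9 is a cytoplasmic protein that interferon induces and that restrains cell growth, and inherited activating forms of it cause bone marrow failure. The KRAB domain recruits corepressors that lay down repressive histone methylation, which can spread from the bound site. Ribosomes are assembled in the nucleolus, where RNA polymerase I makes the ribosomal RNA precursor and large complexes fold and cut it, and the transcription factor MYC is a known activator of many of the genes involved. K562 cells make globins, haem enzymes and red-cell surface proteins. Doxycycline is a tetracycline antibiotic, a class that can slow translation in mitochondria.

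The 2 untreated libraries held 55546215 and 45964285 counts and the 2 doxycycline libraries 51183432 and 51866661. Mitochondrially encoded genes took 4.11 and 4.17% of the untreated counts and 4.79 and 4.75% of the doxycycline counts. All 12 erythroid markers fixed for K562 were at 1 CPM or more in the 4 libraries, where CPM are read counts relative to the library total, scaled by TMM (trimmed mean of M-values). Their summed level was 3399 to 3449 CPM in untreated and 3962 to 4046 CPM in doxycycline libraries. Among markers of other cells, 0 of 5 T cell markers reached 1 CPM in the 4 libraries (CD8A at 0; sums 1.98 to 2.19, then 1.02 to 1.29 CPM). The same held for 0 of 4 granulocyte and monocyte markers (ELANE at 0; 0.637 to 0.675, then 0.293 to 0.459 CPM) and 0 of 4 fibroblast markers (LUM at 0; 2.89 to 3.30, then 1.05 to 1.48 CPM). One each of 3 B cell (1.34 to 2.06, then 1.80 to 2.25 CPM), 2 epithelial (80 to 84.3, then 69.7 to 71.5 CPM) and 3 endothelial markers (CDH5 at 0; 2.30 to 3.52, then 1.97 to 3.43 CPM) reached it. In bulk RNA, fewer cells of a type and less RNA per cell cannot be told apart, and the part of such shifts in the results was not tested.

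With doxycycline, 2654 genes were higher and 2815 lower, 12 and 12.7% of those tested, and 3162 were higher and 2368 lower with library totals in place of TMM (edgeR's quasi-likelihood test, Benjamini-Hochberg adjusted p under 0.05 over all tested genes, the rule for every call that follows). Most changes were small: the median size among called genes was 0.36 on the log2 scale, 1.28-fold. A change over 2-fold was called upward for 354 genes (1.6%) and downward for 288 (1.3%). The direction varied with the level: of 4226 genes at a mean of 1 to 10 CPM 14.9% rose and 7.22% fell, and of 2451 genes over 100 CPM 16.9% rose and 39.7% fell. The 2 libraries of each group lay wholly above the other pair for 30.5% of genes and wholly below for 27.4%. The plot of 16 genes by library shows how closely the 2 libraries of a group agreed.

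**Figure D1:**
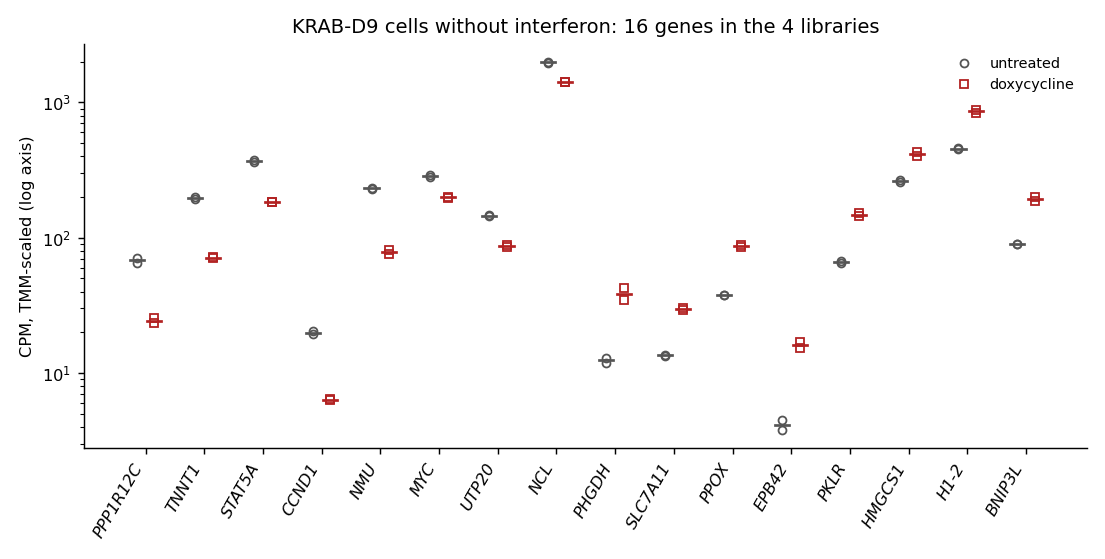
Level of 16 genes in each of the 4 libraries, in TMM-scaled CPM on a log axis; circles are untreated and squares doxycycline libraries, and the short lines are group means (n = 2). The groups did not overlap for any of the 16 genes, a condition of the naming rule for some of them. H1-2, for example, was at 456 and 451 CPM untreated and 874 and 842 CPM with doxycycline.

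SAMD9 (ENSG00000205413.8, chromosome 7, 93099513 to 93118023, GRCh38) was already scarce in untreated KRAB-D9 cells and fell further with doxycycline. It had 40 and 16 counts in the untreated libraries and 0 and 6 in the doxycycline libraries, or 0.750 and 0.364 against 0 and 0.117 CPM. The groups did not overlap, and the sum of 56 against 6 counts is a 9.73-fold lower level (exact 95% counting interval 4.2 to 27.6, for counting error only). The fitted log2 fold change was -3.23 ± 0.50 (standard error; adjusted p = 8.6e-06). It ranged from -7.95 without doxycycline replicate 2, when no count was left in the group, to -2.27 without doxycycline replicate 1, and the call was kept. For scale, untreated parental cells had 9.31 and 9.05 CPM, and in KRAB-D9 cells with IFN doxycycline took SAMD9 from 55.0 and 53.5 to 0.849 and 0.745 CPM (-6.08). The change without IFN was not called different from the one with IFN (difference 2.85, adjusted p = 0.25). The sequence around the start of SAMD9, from RefSeq (GRCh38.p14), is shown because it is the gene the study is named for. Capitals mark its interferon element, TTTC, any 2 bases, then TTTC, read on either strand, which 3.65% of all 27305 promoters of this length hold.
SAMD9 (chr7:93117930-93118229, minus strand): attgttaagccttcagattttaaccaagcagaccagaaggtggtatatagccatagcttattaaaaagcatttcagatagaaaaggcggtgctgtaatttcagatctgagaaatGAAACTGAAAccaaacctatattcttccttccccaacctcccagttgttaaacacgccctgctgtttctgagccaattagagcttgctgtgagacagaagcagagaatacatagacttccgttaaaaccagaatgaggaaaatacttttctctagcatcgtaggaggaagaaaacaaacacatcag

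SAMD9L, the neighbouring paralogue of SAMD9 with a shared origin and similar antiviral role, was at 0.487 and 0.273 CPM in untreated and 0.837 and 0.429 CPM in doxycycline libraries. Its groups overlapped and it was not called (0.69 ± 0.35, adjusted p = 0.16), except without doxycycline replicate 2 (1.1, adjusted p = 0.0344). Of the 22 tested neighbours of SAMD9 on 7q21, 4 rose and 3 fell, or 18.2 and 13.6% beside 12 and 12.7% of all genes, with a median of 0.14 against 0.02 (2 rose without untreated replicate 1, and 1 fell with library totals in place of TMM). GATAD1, a chromatin-associated zinc finger gene, went from 66.2 and 70.5 to 87.9 and 89.3 CPM (0.38 ± 0.06). COL1A2, a collagen chain, went from 32.5 and 26.8 to 12.9 and 11.5 CPM (-1.28 ± 0.13). HEPACAM2, the nearest other gene, was at 11.8 and 12.4 against 13.2 and 13.4 CPM and was not called (0.14 ± 0.12).

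Away from SAMD9, the lowest stretches of neighbouring genes lay in 2 short chromosome segments. Counts by distance in these segments cover only genes that have a gene symbol and averaged 1 CPM or more over the 4 libraries. Other tested genes there were left out of these counts. On 19q13, 14 of the 15 genes so counted within 200 kb of PPP1R12C fell and 0 rose, with a median of -0.92. From 200 to 500 kb, 4 of 10 fell (median -0.12), and from 500 to 1000 kb 5 of 20 fell and 1 rose (-0.19). Both segments were picked after their values were seen, so these counts describe them and test nothing. Across 9613 windows of 7 neighbouring genes spanning at most 1.5 Mb, the median log2 fold change had its 1st percentile at -0.36 and its 99th at 0.47. The lowest windows in the 2 segments had medians of -1.48 (19q13) and -2.10 (7q34). Other windows below the 1st percentile include one on 17q21 that ends at STAT5A (-0.92) and one on 1p36 (-0.75), which are not described further here.

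PPP1R12C (ENSG00000125503.13, chromosome 19, 55090914 to 55117637, GRCh38) encodes a regulatory subunit of myosin phosphatase, and its first intron holds AAVS1, a site often used to insert transgenes. Whether the constructs were put there is not given in the sources used here. Its RNA went from 71.0 and 64.9 CPM to 23.5 and 25.3 CPM (-1.48 ± 0.06, adjusted p = 2.8e-21). GP6, the platelet collagen receptor, went from 14.3 and 14.9 to 2.03 and 2.52 CPM (-2.68 ± 0.17). DNAAF3, needed to assemble ciliary dynein, went from 11.6 and 10.7 to 2.75 CPM in both libraries (-2.02 ± 0.14). The groups did not overlap in these genes, which the rule that named them required. Adjacent troponin genes both fell. TNNT1 went from 194 and 198 to 72.0 and 70.7 CPM (-1.46 ± 0.05), and TNNI3 from 9.54 and 9.66 to 3.45 and 3.36 CPM (-1.50 ± 0.13). NLRP2, an innate immune receptor gene at the edge of the segment, went from 42.2 and 38.3 to 16.5 CPM in both libraries (-1.29 ± 0.07). SYT5 (-0.92), PTPRH (-0.85), RDH13 (-0.70) and EPS8L1 (-0.63) fell too. GP6-AS1 and TMEM86B lost their call without doxycycline replicate 2 (adjusted p = 0.128 and 0.203) and without untreated replicate 1 (0.314 and 0.258). GP6 and GP6-AS1 overlap on opposite strands and may share reads, since the strand setting of the counting is not given in the sources used here.

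**Figure D2:**
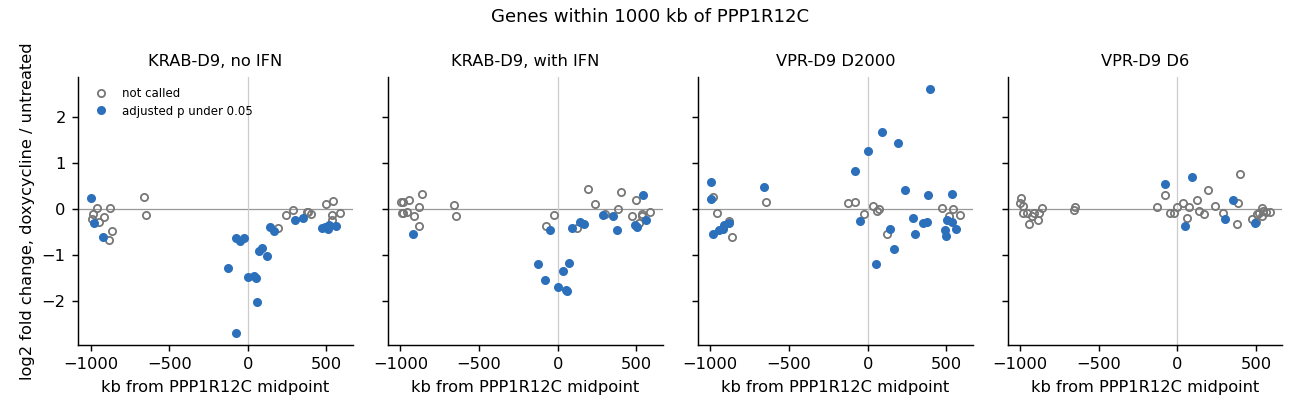
Log2 fold change with doxycycline of genes within 1000 kb of PPP1R12C, in the 4 comparisons with doxycycline. Only genes that have a gene symbol and averaged 1 CPM or more over the 4 libraries without IFN are drawn. Values are set against distance from the midpoint of PPP1R12C in kb, and filled points passed an adjusted p of 0.05. In KRAB-D9 without IFN 14 of 15 genes within 200 kb fell, in KRAB-D9 with IFN 11 fell, in VPR-D9 D2000 4 rose and 4 fell, and in D6 2 rose and 1 fell.

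In the activator line, the median over the same 15 genes was 0.01 in D2000 and 0.04 in D6. Since the segment was picked for its falls in KRAB-D9, these values stand beside each other without a test. PPP1R12C itself rose by 1.26 in D2000 and was at 0.04 in D6.

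The other segment, on 7q34, lies far from SAMD9 on the same chromosome arm. EPHB6, a receptor-like protein without kinase activity (ENSG00000106123.12, chromosome 7, 142855061 to 142871094), went from 57.2 and 60.5 to 17.3 and 16.2 CPM (-1.81 ± 0.11). The T cell receptor constant genes next to it were low and fell: TRBC1 went from 5.32 and 3.87 to 0.698 and 0.702 CPM (-2.71 ± 0.42), and TRBC2 from 2.25 and 2.46 to 0.578 and 0.312 CPM (-2.40 ± 0.50). These near-identical genes may share reads, so their values are uncertain. KEL, the Kell blood group protein on the far side, rose from 133 and 129 to 184 and 195 CPM (0.53 ± 0.04). Of all 7 genes within 200 kb, 5 fell and 2 rose, but 3 calls were fragile. PRSS2 (-2.20) lost its call in each of the 4 fits that left out 1 library (adjusted p from 0.0986 to 0.219), TRPV6 (-2.10) lost it without doxycycline replicate 1 (adjusted p = 0.0779), and LLCFC1 (1.02) in all 4 (0.0791 to 0.195). Only EPHB6, TRBC1 and TRBC2 therefore fell in every such fit, and 3 of 7 fell without doxycycline replicate 1. With IFN 2 of the 7 fell and 1 rose. In VPR-D9 3 fell and 1 rose in D2000, and 1 fell and 0 rose in D6. The low genes TRBC1 and TRBC2 fell in D2000 too, by -6.12 and -6.05, while EPHB6 rose there (0.97). These values stand beside each other without a test.

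Genes for ribosome assembly fell together, each by a modest amount. For scale here and in the lists below, 20% of all genes at a mean of 1 CPM or more fell and 18.7% rose. Over 100 CPM, 39.7% fell and 16.9% rose. Of 52 tested members of the small-subunit processome and 40S assembly list, 46 fell and 0 rose, with a median of -0.40 against 0.02 over all genes. Of 52 large-subunit assembly genes, 49 fell and 0 rose (median -0.37). Of 22 genes of RNA polymerase I and the nucleolar scaffold, 15 fell and 0 rose (-0.31). Over the 3 lists, 126 genes, the summed level went from 25080 and 25070 CPM to 19280 and 19260 CPM. Of them 122 (96.8%) had both doxycycline libraries below both untreated ones, beside 27.4% of all genes tested. All 6 genes of the UTP-A complex and all 6 of the UTP-B complex, which start processome assembly on the nascent transcript, fell, as did 7 of 8 genes of the U3 snoRNP and MPP10 module.

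UTP20, a scaffold of the processome, went from 147 and 144 to 87.9 and 85.0 CPM (-0.75 ± 0.04, adjusted p = 1.6e-16). NOL6, another processome component, went from 159 CPM in both libraries to 91.2 and 97.6 CPM (-0.75 ± 0.05). IMP4, which helps U3 pair with the precursor, went from 173 and 170 to 108 and 110 CPM (-0.66 ± 0.04). For these 3 genes the gap between groups was many times that within them. The UTP-B member PWP2 went from 37.9 and 35.1 to 21.4 and 20.8 CPM (-0.79 ± 0.09). HEATR1, the UTP-A member that also promotes polymerase I transcription, went from 294 and 283 to 197 and 203 CPM (-0.53 ± 0.04). FBL, the methyltransferase of box C/D snoRNPs, went from 828 and 817 to 643 and 633 CPM (-0.37 ± 0.04), and its partner NOP56 changed by -0.49. On the large-subunit side, the helicase DDX21 went from 1232 and 1241 to 888 and 863 CPM (-0.50 ± 0.04), and PES1, of the PeBoW complex, from 230 CPM in both to 160 and 164 CPM (-0.50 ± 0.04). MDN1, the giant remodelling ATPase, fell less, from 356 and 338 to 292 and 297 CPM (-0.24 ± 0.04).

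Among polymerase I genes, POLR1G, a subunit of the enzyme, went from 30.8 and 31.7 to 15.8 and 15.9 CPM (-0.97 ± 0.09). The largest subunit gene POLR1A changed by -0.31 ± 0.04. NCL, nucleolin, an abundant nucleolar protein, went from 1970 and 1977 to 1416 and 1412 CPM (-0.48 ± 0.04), and NPM1, nucleophosmin, from 3206 and 3143 to 2599 and 2534 CPM (-0.31 ± 0.05). Of 8 subunit genes 5 fell, and of 6 initiation factor genes 3 fell.

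The ribosomal proteins themselves did not share this shift. Of 77 cytosolic ribosomal protein genes, 8 rose and 6 fell, with a median of 0.03. RPL13A went from 2616 and 2634 to 3115 and 3112 CPM (0.25 ± 0.03) and RPL3 from 1874 and 1865 to 2173 and 2153 CPM (0.21 ± 0.03). RPS6, RPS19, RPL5 and RPL11 lay between 0.02 and 0.06 and were not called, though RPL5 passed with library totals (adjusted p = 0.0151). Neither count was stable: 4 rose without doxycycline replicate 1 and 3 without untreated replicate 2, and 3 fell without doxycycline replicate 2 or untreated replicate 1. With library totals in place of TMM 23 rose and 3 fell, and in the 4 compared libraries alone 14 and 14. With IFN, 3 rose and 30 fell (median -0.11). Of 19 translation factor genes 10 fell (52.6%) and 1 rose (median -0.13), beside 39.7 and 16.9% of all genes over 100 CPM. EEF2, the elongation factor that moves the ribosome, was not called (0.08 ± 0.04). It passed with library totals (adjusted p = 0.044), in the 4 compared libraries alone (0.0217) and without the KRAB-D9 IFN group (0.0317).

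MYC fell from 281 and 291 to 197 and 201 CPM (-0.52 ± 0.04, adjusted p = 4.1e-13). Of the 12 tested genes of its network 6 rose and 2 fell. MXD4, which competes with MYC for their shared partner MAX, rose from 22.7 and 20.8 to 51.9 and 47.4 CPM (1.19 ± 0.08). MXD3 of the same family rose by 0.67 ± 0.11, and MLXIPL, a glucose-responsive factor, by 1.13 ± 0.15. MAX changed by -0.16 ± 0.05, a call that was lost without doxycycline replicate 2 (adjusted p = 0.177) or untreated replicate 1 (0.227), so that only MYC fell there.

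The E-box CACGTG, a palindrome that MYC and MAX can bind, was counted in RefSeq promoters (GRCh38.p14, 250 bases before to 50 after the start). It stood in 35 of the 107 ribosome assembly promoters found, 32.7%, in 9.71% of the 12749 tested genes with a promoter, and in 7.43% of all promoters. It stood in 13.7% of promoters of genes that fell and 9.5% of those that rose. The promoters of PWP2, NOL6 and UTP20 are shown with the E-box in capitals because these genes are among the larger falls of their list. A match is a description of the letters and shows no binding.
PWP2 (chr21:44107149-44107448, plus strand): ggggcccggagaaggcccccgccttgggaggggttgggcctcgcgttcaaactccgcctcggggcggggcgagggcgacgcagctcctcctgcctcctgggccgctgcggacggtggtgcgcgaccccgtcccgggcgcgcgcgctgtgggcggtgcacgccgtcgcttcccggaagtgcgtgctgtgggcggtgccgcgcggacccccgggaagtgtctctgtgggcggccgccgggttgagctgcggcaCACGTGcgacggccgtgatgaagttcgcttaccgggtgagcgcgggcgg
NOL6 (chr9:33473875-33474174, minus strand): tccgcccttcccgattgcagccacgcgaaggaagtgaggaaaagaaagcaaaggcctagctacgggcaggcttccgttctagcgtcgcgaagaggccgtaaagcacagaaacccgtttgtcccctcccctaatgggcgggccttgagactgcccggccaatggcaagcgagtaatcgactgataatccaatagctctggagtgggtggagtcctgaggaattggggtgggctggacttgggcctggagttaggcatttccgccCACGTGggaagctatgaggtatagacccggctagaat
UTP20 (chr12:101279855-101280154, plus strand): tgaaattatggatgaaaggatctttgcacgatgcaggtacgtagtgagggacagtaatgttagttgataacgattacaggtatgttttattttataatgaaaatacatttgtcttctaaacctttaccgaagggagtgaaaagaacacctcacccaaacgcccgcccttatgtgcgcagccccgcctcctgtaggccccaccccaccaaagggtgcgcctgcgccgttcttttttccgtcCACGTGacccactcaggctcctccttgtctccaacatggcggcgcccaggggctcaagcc

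STAT5A, a transcription factor activated by cytokine receptors and by the BCR-ABL kinase of these cells, was among the strongest falls by adjusted p. It went from 365 and 373 CPM to 184 CPM in both doxycycline libraries (-1.0 ± 0.04, adjusted p = 2.6e-21). A list of 12 tested genes made of STAT5A, STAT5B and known targets was drawn up after values were seen, so it describes only; 9 fell and 1 rose (0 rose without doxycycline replicate 2 or untreated replicate 1), with a median of -0.46. PIM1 and PIM2, growth-promoting kinases, went from 523 and 543 to 392 and 378 CPM (-0.47 ± 0.04) and from 177 and 175 to 101 and 103 CPM (-0.78 ± 0.05). Of the feedback inhibitors, SOCS1 went from 11.3 and 10.7 to 5.40 and 5.42 CPM (-1.03 ± 0.18), SOCS2 changed by -0.46 and CISH by -0.34. Cyclin D genes fell as well: CCND1 went from 19.5 and 20.3 to 6.40 and 6.26 CPM (-1.65 ± 0.13), CCND2 from 23.9 and 22.6 to 13.1 and 12.2 CPM (-0.88 ± 0.09), and CCND3 from 281 and 293 to 242 and 243 CPM (-0.25 ± 0.04). STAT5B, the second STAT5 gene, was at 146 and 154 against 162 and 169 CPM (0.14 ± 0.04), a call lost without doxycycline replicate 2 (adjusted p = 0.155) or untreated replicate 1 (0.193). STAT3, next to STAT5A on 17q21, also fell (-0.38 ± 0.04), and the window of 7 genes that ends at STAT5A had a median of -0.92.

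Genes of the ATF4 stress response rose in part. ATF4 is the transcription factor that stressed cells make when the initiation factor eIF2 is phosphorylated, and it raises genes for amino acid supply. Of 45 tested members 23 rose and 3 fell, with a median of 0.20. ATF4 RNA itself went from 229 and 231 to 331 and 313 CPM (0.49 ± 0.04), and EIF2AK1, the haem-regulated eIF2 kinase, from 184 and 197 to 261 and 253 CPM (0.43 ± 0.04). PHGDH, the first enzyme of serine synthesis, went from 11.9 and 12.9 to 42.3 and 34.8 CPM (1.64 ± 0.09, adjusted p = 1e-16), the smallest adjusted p of the list. PSAT1, the next enzyme, went from 24.2 and 22.4 to 40.1 and 34.6 CPM (0.68 ± 0.07), and PSPH, the last, was not called (0.21 ± 0.12). The cystine carrier SLC7A11 went from 13.4 and 13.6 to 29.1 and 30.2 CPM (1.14 ± 0.09) and the glycine carrier SLC6A9 from 16.6 and 13.5 to 38.4 and 37.5 CPM (1.33 ± 0.10). CHAC1, which degrades glutathione, was low and went from 0.619 and 0.341 to 2.47 and 1.68 CPM (2.09 ± 0.40). DDIT3, the factor CHOP, did not follow (-0.10 ± 0.10), and neither did GDF15, a secreted stress signal (-0.02 ± 0.07), nor the folate enzymes MTHFD2 (0.00 ± 0.04) and SHMT2 (-0.11 ± 0.05), which were not called. The 3 members that fell were SLC7A5, EIF2AK4 and ALDH18A1, by 0.19 to 0.29; without doxycycline replicate 1 or untreated replicate 2 only 1 fell.

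The C/EBP-ATF element TGATGCAA, which ATF4 can bind with a partner, stood on either strand in 2 of the 37 promoters of the list found, those of CHAC1 and PPP1R15B, and in 0.923% of all promoters. Of the 19 promoters of members that rose, 1 held it, that of CHAC1, and PPP1R15B was not called (0.02). The CHAC1 promoter is shown with the element in capitals.
CHAC1 (chr15:40953221-40953520, plus strand): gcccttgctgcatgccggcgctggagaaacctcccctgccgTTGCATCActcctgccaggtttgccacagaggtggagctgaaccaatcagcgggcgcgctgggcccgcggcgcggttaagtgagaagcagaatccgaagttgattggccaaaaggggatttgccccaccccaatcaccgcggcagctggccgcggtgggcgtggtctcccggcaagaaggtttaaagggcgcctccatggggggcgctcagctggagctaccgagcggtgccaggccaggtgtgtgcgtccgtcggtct

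Of 37 aminoacyl-tRNA synthetase genes, which charge tRNAs, 10 rose and 12 fell. CARS1, for cysteine, rose from 48.6 and 48.3 to 78.4 and 77.3 CPM (0.69 ± 0.07), and MARS1, for methionine, from 224 CPM in both to 287 and 284 CPM (0.35 ± 0.04). RARS1, for arginine, fell from 205 and 209 to 148 and 149 CPM (-0.48 ± 0.04), and MARS2, the mitochondrial counterpart of MARS1, from 36.3 and 34.6 to 23.4 and 19.9 CPM (-0.71 ± 0.08). Of the cytosolic members 8 rose and 7 fell, and of the mitochondrial ones 2 rose and 5 fell.

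Genes of mitochondria gave mixed counts. Of the mitochondrial ribosomal protein and nuclear respiratory chain genes counted below, 45.5 and 22.5% fell. Of all genes, 20% fell at a mean of 1 CPM or more and 39.7% over 100 CPM. Of 13 mRNAs encoded in mitochondria, 6 rose and 0 fell (median 0.24). MT-CYB, of complex III, went from 1759 and 1754 to 2356 and 2138 CPM (0.36 ± 0.08), and MT-ND5, of complex I, from 2452 and 2548 to 2939 and 3074 CPM (0.27 ± 0.06). Leaving out any 1 of the 4 libraries left 3 called, and using only the 4 compared libraries gave 11. Of 77 nuclear genes for mitochondrial ribosomal proteins, 35 fell and 2 rose (median -0.15); 0 rose without doxycycline replicate 1 or either untreated library. MRPL1 went from 66.2 and 69.9 to 48.2 and 45.1 CPM (-0.54 ± 0.06) and MRPS12 from 82.4 and 82.3 to 58.8 and 54.9 CPM (-0.54 ± 0.07). All 5 mitochondrial chaperone genes fell, HSPD1 from 1302 and 1301 to 1110 and 1100 CPM (-0.24 ± 0.03). TWNK, the mitochondrial DNA helicase, went from 84.9 and 91.8 to 53.1 and 55.6 CPM (-0.70 ± 0.06), and TFAM, which packs that DNA, from 288 and 282 to 229 and 223 CPM (-0.34 ± 0.04). Of 71 nuclear respiratory chain genes 16 fell, 5 rose and 50 were not called, with a median of -0.04 that turned positive with library totals; 10 fell without doxycycline replicate 2, and from 1 to 3 rose without untreated replicate 2 or either doxycycline library.

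**Figure D3:**
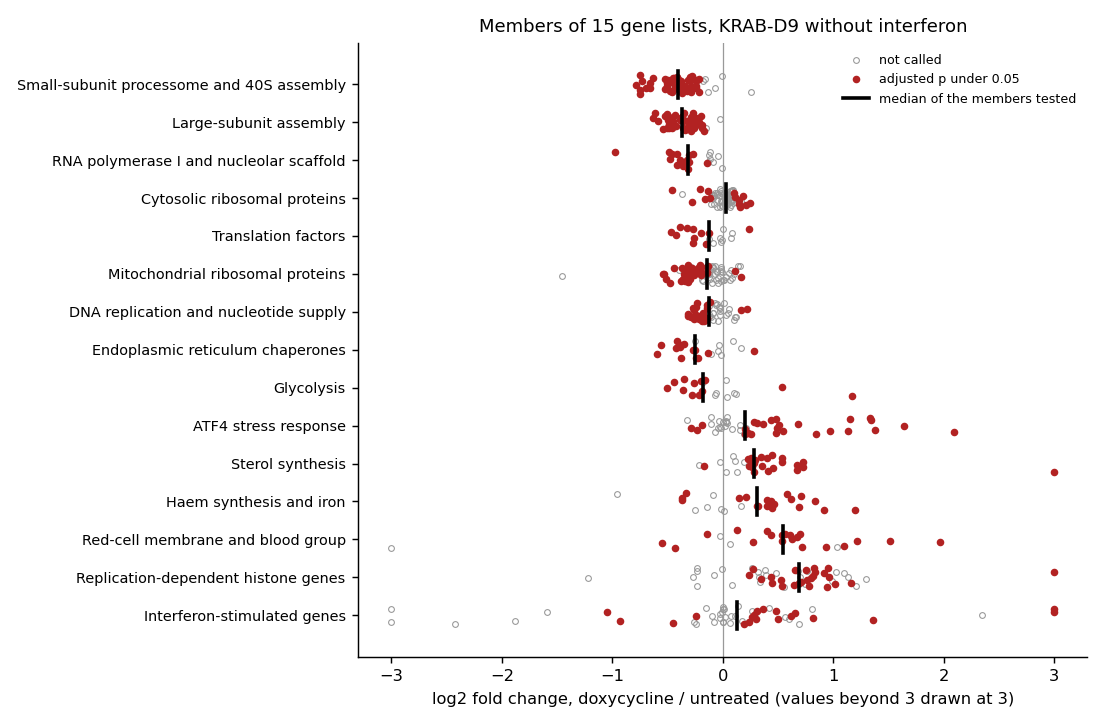
Log2 fold change with doxycycline of each tested member of 15 gene lists; filled points passed an adjusted p of 0.05 and black lines are medians. The ribosome assembly lists lie left of 0 with medians of -0.40 and -0.37, and the red-cell and histone lists right of it with medians of 0.55 and 0.69; values beyond 3 are drawn at 3.

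Red-cell genes rose. Of 24 tested red-cell membrane and blood group genes 17 rose and 3 fell (median 0.55), and of 26 genes of haem synthesis and iron 16 rose and 3 fell (0.31). Of the 9 haem enzyme genes 8 rose and 0 fell. ALAS2, the erythroid enzyme that starts haem synthesis, went from 238 and 251 to 408 and 389 CPM (0.70 ± 0.04, adjusted p = 6.7e-16), while ALAS1, the form in other tissues, was not called (-0.15 ± 0.07). PPOX, the penultimate enzyme, went from 38.0 CPM in both libraries to 88.4 and 85.1 CPM (1.19 ± 0.06). ALAD went from 31.1 and 34.3 to 63 and 60.4 CPM (0.92 ± 0.07) and UROS from 33.0 and 35.8 to 61.0 and 61.5 CPM (0.83 ± 0.07). In each of these called genes the groups were well apart. SLC25A37, mitoferrin, which imports iron into mitochondria, went from 356 and 349 to 566 and 570 CPM (0.69 ± 0.04). FTL, the ferritin light chain that stores iron, went the other way, from 2297 and 2169 to 1746 and 1703 CPM (-0.37 ± 0.04).

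EPB42, a protein that anchors the red-cell membrane skeleton, rose from 3.79 and 4.5 to 15.3 and 16.9 CPM (1.96 ± 0.16, adjusted p = 2.2e-12). ADD2, an adducin of the same skeleton, rose from 96.6 and 102 to 190 and 189 CPM (0.94 ± 0.05). DMTN, dematin, which bundles actin there, changed by 1.10 ± 0.08. Rhesus genes rose: RHCE went from 15.6 and 15.8 to 44.2 and 45.4 CPM (1.51 ± 0.09), RHD from 20.4 and 17.7 to 45.9 and 42.5 CPM (1.21 ± 0.08), and their partner RHAG from 648 and 639 to 850 and 852 CPM (0.40 ± 0.04). RHCE and RHD are near copies, so how reads were shared between them is uncertain. The water channel AQP1 fell from 6.09 and 5.66 to 4.01 and 4.02 CPM (-0.55 ± 0.15), and STOM, stomatin, changed by -0.43 ± 0.07.

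Among globins, 3 of 10 tested rose and 1 fell, with a median of 0.24 and values from -0.41 to 1.34. The fetal genes HBG1 and HBG2, near copies of each other, went from 288 and 255 to 361 and 375 CPM (0.44 ± 0.09) and from 110 and 112 to 141 and 148 CPM (0.38 ± 0.07). HBZ, the embryonic alpha-like chain, was at 617 and 635 against 572 CPM in both and was not called (-0.13 ± 0.11), except in the 4 compared libraries alone (adjusted p = 3.93e-05). The 1 that fell, HBA2, was at 228 and 233 against 165 and 181 CPM (-0.41 ± 0.11), a call lost without doxycycline replicate 1 (adjusted p = 0.112), untreated replicate 1 (0.0541) or untreated replicate 2 (0.0754).

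GATA1, the factor that sets the red-cell programme, was at 219 and 230 CPM untreated and 230 and 232 CPM with doxycycline and was not called (0.04 ± 0.04). Of its cofactors, TAL1 rose from 181 CPM in both to 233 and 236 CPM (0.38 ± 0.05), LMO2 from 103 and 99.5 to 143 CPM in both (0.49 ± 0.05), and KLF1 from 165 and 173 to 198 and 209 CPM (0.27 ± 0.05). Of 9 erythroid factors 5 rose and 1 fell, and of 10 factors of earlier or other lineages 5 fell, 1 rose and 4 were not called. GATA2 went from 159 and 163 to 122 and 116 CPM (-0.44 ± 0.05), MYB from 214 and 210 to 155 and 161 CPM (-0.42 ± 0.04), and SPI1, the factor PU.1 of myeloid cells, from 16.7 and 18.3 to 11.4 and 11.9 CPM (-0.58 ± 0.11). RUNX1 changed by -0.28 ± 0.05. Of 19 such factors in all, 6 rose and 6 fell; 3 rose without doxycycline replicate 2 or untreated replicate 1. The GATA element GATAAG stood on either strand in 9 of the 38 promoters found for the globin, haem and red-cell lists (23.7%) and in 6.36% of all promoters. PKLR, the red-cell pyruvate kinase and not one of the 38, rose from 65.4 and 66.8 to 153 and 144 CPM (1.17 ± 0.06, adjusted p = 5.3e-19). Its promoter is shown, with the element in capitals, as that of the called glycolysis gene with the smallest adjusted p.
PKLR (chr1:155301389-155301688, minus strand): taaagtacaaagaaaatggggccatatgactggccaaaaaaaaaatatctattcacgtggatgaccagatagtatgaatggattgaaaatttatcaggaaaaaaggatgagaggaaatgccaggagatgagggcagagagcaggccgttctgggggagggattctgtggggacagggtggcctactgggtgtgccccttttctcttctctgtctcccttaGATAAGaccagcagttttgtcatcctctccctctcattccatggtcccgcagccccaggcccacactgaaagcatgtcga

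Platelet and myeloid genes, mostly low in these cells, fell more often than they rose. Of 12 tested megakaryocyte genes 5 fell and 2 rose, and of 12 myeloid genes 4 fell and 1 rose (0 rose without doxycycline replicate 1). ITGA2B, the platelet integrin chain, went from 18.4 and 18.1 to 6.78 and 6.65 CPM (-1.44 ± 0.17), and its partner ITGB3 from 2.19 and 3.02 to 1.12 and 0.956 CPM (-1.33 ± 0.28). TUBB1, the platelet tubulin, went up, from 18.5 and 16.9 to 40.6 and 39.7 CPM (1.18 ± 0.10). FCGR2A, a receptor for antibodies, went from 36.2 and 37.1 to 12.8 and 10.5 CPM (-1.66 ± 0.09), CD33 from 26.0 and 29.3 to 15.6 and 15.8 CPM (-0.81 ± 0.07), and lysozyme, LYZ, from 25.5 and 26.9 to 14.7 and 14.0 CPM (-0.87 ± 0.08). The granulocyte and monocyte markers CD14, CSF1R, ELANE and MPO summed to 0.637 to 0.675 CPM untreated and 0.293 to 0.459 CPM with doxycycline, with ELANE at 0 in all 4 libraries and CSF1R at 0 in both with doxycycline. Their part in the result was not tested.

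Sterol genes rose more often than they fell, and fatty acid genes went both ways. Of 29 tested sterol synthesis genes, which the factor SREBP-2 drives, 21 rose and 1 fell (median 0.29). HMGCS1, an early step, went from 258 and 266 to 431 and 404 CPM (0.67 ± 0.04, adjusted p = 4.2e-15). LSS, which closes the sterol rings, went from 142 and 140 to 232 and 217 CPM (0.67 ± 0.05), and MSMO1 from 55.6 and 52.8 to 95 and 84.1 CPM (0.72 ± 0.06). Of 10 fatty acid synthesis genes 3 rose, 4 fell and 3 were not called (5 rose with library totals), with a median of 0.04. ACSS2, which makes acetyl-CoA from acetate, was among those that rose (0.41). FASN, fatty acid synthase, went from 810 and 857 to 439 and 436 CPM (-0.93 ± 0.10), and the desaturases FADS1 from 600 and 603 to 415 and 392 CPM (-0.58 ± 0.04) and FADS2 from 47.3 and 51.7 to 37.7 and 38.2 CPM (-0.38 ± 0.07).

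Of 19 glycolysis genes 10 fell (52.6%) and 2 rose (median -0.18), beside 39.7 and 16.9% of all genes over 100 CPM. ENO1, enolase, went from 2841 and 2852 to 2128 and 2075 CPM (-0.44 ± 0.03), HK2, hexokinase, from 112 and 116 to 82.4 and 78.2 CPM (-0.51 ± 0.06), and LDHA, lactate dehydrogenase, from 1012 and 1010 to 834 and 750 CPM (-0.35 ± 0.04). The 2 that rose were PKLR and the glucose carrier SLC2A1, from 219 and 222 to 328 and 313 CPM (0.54 ± 0.05). Of 14 hypoxia targets 7 rose and 2 fell (1 without doxycycline replicate 1 or untreated replicate 2); PFKFB4, a glycolytic regulator, went from 20.8 and 22.5 to 42.5 and 37.3 CPM (0.88 ± 0.09). Of 26 autophagy and lysosome genes 11 rose and 5 fell (3 without doxycycline replicate 2). BNIP3L, the receptor that clears mitochondria from maturing red cells, went from 89.3 and 90.1 to 198 and 187 CPM (1.10 ± 0.05, adjusted p = 2.2e-19), and ULK1, the kinase that starts autophagy, from 33.1 and 33.3 to 47.1 and 53.7 CPM (0.60 ± 0.08).

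Of 21 endoplasmic reticulum chaperone genes 13 fell and 1 rose (median -0.25). CALR, calreticulin, went from 1102 and 1099 to 739 and 721 CPM (-0.59 ± 0.04), HSPA5, the chaperone BiP, from 703 and 713 to 519 and 537 CPM (-0.42 ± 0.04), and HSP90B1 from 827 and 833 to 647 and 632 CPM (-0.38 ± 0.04). The 1 that rose, HERPUD1, at 18.1 and 20.4 against 22.4 and 24.2 CPM (0.28 ± 0.09), was not called without doxycycline replicate 2 (adjusted p = 0.201) or untreated replicate 1 (0.279). Of 15 NRF2 targets 5 fell and 2 rose: NQO1, a quinone reductase, went from 57.5 and 56.9 to 34.8 and 34.4 CPM (-0.72 ± 0.05), opposite to SLC7A11, which is also a target of ATF4. The 2 that rose were 1 without doxycycline replicate 1 or untreated replicate 1.

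Cell cycle genes gave a mixed picture. Of the replication and nucleotide genes counted next 46.8% fell, beside 20% of all genes at a mean of 1 CPM or more and 39.7% over 100 CPM. Of 47 genes of DNA replication and nucleotide supply 22 fell and 2 rose (median -0.12), but 13 fell without untreated replicate 2, and 1 rose without it or doxycycline replicate 2. RRM2, of ribonucleotide reductase, went from 348 and 361 to 288 and 292 CPM (-0.29 ± 0.04), and FEN1, a flap nuclease of the fork, from 238 and 241 to 194 and 190 CPM (-0.32 ± 0.04). MCM2 (-0.04 ± 0.07) and PCNA (-0.07 ± 0.04) were not called, though PCNA passed in the 4 compared libraries alone (adjusted p = 0.0351). Of 32 mitosis genes 8 rose and 1 fell; TOP2A, topoisomerase II, went from 520 and 526 to 600 and 594 CPM (0.19 ± 0.04), and CDC25C, the phosphatase that starts mitosis, from 21.8 and 23.8 to 34.1 and 31.9 CPM (0.53 ± 0.08). The 1 that fell, AURKA, changed by -0.18 ± 0.05, though 2 fell without untreated replicate 1 and 5 in the 4 compared libraries alone. Of the CDK inhibitors, CDKN1B went from 75.1 and 76.9 to 100 and 89.8 CPM (0.32 ± 0.06) and CDKN2C from 113 and 119 to 146 CPM in both (0.33 ± 0.05).

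Replication-dependent histone genes, a list made after values were seen, stood out in the other direction: 25 of 52 tested rose and 0 fell (median 0.69; 1 fell without doxycycline replicate 1). H1-2, a linker histone, went from 456 and 451 to 874 and 842 CPM (0.92 ± 0.04, adjusted p = 6e-21), the smallest adjusted p of any gene that rose. H2AC6 went from 137 and 136 to 221 and 222 CPM (0.70 ± 0.04), H2BC21 from 35.2 and 37.3 to 59.7 and 66.3 CPM (0.80 ± 0.07), and H3C10 from 41.7 and 34.3 to 66.6 and 64.1 CPM (0.78 ± 0.07). Their mRNAs normally end without a poly(A) tail, and the libraries were made from poly(A)-selected RNA, so these values come from whatever part was captured. Histone genes are also near copies of each other, and reads may be shared. H2BC3 had 0 counts in both untreated libraries and 25 and 17 with doxycycline, at least 13.4-fold higher against a floor of 3 counts over the group, and counts among the 25.

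K562 cells are p53-null, and of 23 genes listed as p53 targets 8 rose and 5 fell. TP53INP1, a stress-induced autophagy regulator, went from 5.94 and 6.07 to 15.7 and 14.2 CPM (1.32 ± 0.12), BTG2, an antiproliferative gene, from 69.0 and 67.5 to 100 and 101 CPM (0.56 ± 0.06), and CCNG1 from 174 and 175 to 256 and 241 CPM (0.51 ± 0.05). MDM2, the best known target, was not called (0.07 ± 0.06). Without untreated replicate 1 these counts were 5 and 3, and 3 fell without doxycycline replicate 1 or doxycycline replicate 2.

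Interferon-stimulated genes were mostly low and mixed. Of 52 tested 15 rose and 4 fell (median 0.12), and of the 31 at a mean of 1 CPM or more 13 rose and 3 fell, where 2490 of all 13310 such genes rose and 2667 fell. UBE2L6, a conjugating enzyme for ISG15, went from 6.19 and 6.78 to 11 and 11.7 CPM (0.81 ± 0.09), OAS3, which senses double-stranded RNA, from 4.01 and 5.03 to 7.55 and 6.52 CPM (0.65 ± 0.10), and CMPK2 from 45.0 and 44.6 to 66.9 and 59.8 CPM (0.50 ± 0.06). The membrane proteins IFITM2 and IFITM3 fell, from 80.2 and 78.9 to 42.8 and 40.6 CPM (-0.93 ± 0.05) and from 48.7 and 51.6 to 37.6 and 35.7 CPM (-0.45 ± 0.05). ISG15 itself was at 5.17 and 5.59 against 4.41 and 5.27 CPM and was not called. MX1, IFI44 and IFI44L had no count in any of the 4 libraries. IFIT1 and OAS1, among the 15, had 0 counts in both untreated libraries and 8 and 5 and 2 and 4 with doxycycline, at least 4.16-fold and 1.92-fold higher against 3 counts over the group. OAS1 lost its call without doxycycline replicate 2 (adjusted p = 0.152), untreated replicate 1 (0.15) or untreated replicate 2 (0.112), and IFIT1 in the 4 compared libraries alone (0.113). In the promoters found for this list 26 of 42 (61.9%) held the interferon element. Of the signalling genes, IRF7 rose from 2.51 and 2.50 to 5.18 and 4.86 CPM (1.0 ± 0.15) and STAT2 from 43.9 and 43.4 to 62.5 and 61.3 CPM (0.50 ± 0.05), while STAT3 fell from 147 and 149 to 116 and 111 CPM (-0.38 ± 0.04).

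Of 20 class I antigen presentation genes 9 fell and 0 rose (median -0.26; 1 rose without doxycycline replicate 1 and 2 with library totals). B2M, the class I light chain, went from 510 and 503 to 442 and 435 CPM (-0.21 ± 0.04), and PSMB10, of the immunoproteasome, from 7.08 and 6.39 to 4.37 and 3.10 CPM (-0.85 ± 0.15). HLA-B, a class I heavy chain, had at most 0.114 CPM in any of the 4 libraries and was not called. Of 20 matrix, keratin and adhesion genes 12 fell and 3 rose (7 fell without untreated replicate 2). FN1, fibronectin, went from 20.7 and 24.6 to 10.7 and 9.17 CPM (-1.18 ± 0.10), VIM, vimentin, from 163 and 165 to 106 CPM in both (-0.63 ± 0.04), and KRT8, a keratin, from 438 and 453 to 321 and 298 CPM (-0.53 ± 0.05). The fibroblast markers summed to 2.89 to 3.30 and 1.05 to 1.48 CPM in the same libraries.

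Single genes with the largest changes came from several functions. LOXL4, which cross-links collagen, had the largest rise among genes at a mean of 1 CPM or more, from 0.225 and 0.364 to 2.69 and 2.98 CPM (3.29 ± 0.43). PCSK1N, an inhibitor of a prohormone protease, went from 0.918 and 1.05 to 5.24 and 4.97 CPM (2.38 ± 0.39), and MIR210HG, the host RNA of a hypoxia-induced microRNA, from 0.806 and 0.955 to 4.07 and 3.59 CPM (2.12 ± 0.38). BCAM, which carries the Lutheran blood group, went from 1.5 and 1.09 to 5.32 and 4.12 CPM (1.85 ± 0.21). The largest fall among them was that of S100P, a calcium-binding protein, from 2.32 and 3.41 to 0.319 and 0.312 CPM (-3.17 ± 0.40). The imprinted RNA H19 went from 13.8 and 15.4 to 3.21 and 3.41 CPM (-2.14 ± 0.18), CD3D, of the T cell receptor complex, from 5.00 and 5.03 to 0.917 and 0.897 CPM (-2.46 ± 0.25), and LCP2, an adaptor of blood cell receptors, from 14.7 and 13.7 to 3.81 and 3.30 CPM (-2.0 ± 0.12). CD3D moved with the T cell marker sum of the same libraries (1.98 to 2.19, then 1.02 to 1.29 CPM). In that sum only CD3G had groups that did not overlap (1.74 and 1.00, then 0.56 and 0.72 CPM). CD3E (0.30 and 0.55, then 0.26 and 0.35 CPM) and CD5 (0.11 and 0.43, then 0.20 and 0.21 CPM) overlapped. LCK was at 0.037 and 0, then 0 CPM in both, and CD8A was at 0. The part of CD3D and of the sum in each other was not tested.

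Genes with the smallest adjusted p were mostly higher at the start. NMU, the peptide neuromedin U, went from 230 and 234 to 75.7 and 80.9 CPM (-1.57 ± 0.04, adjusted p = 2.6e-26), and the membrane protein EMP3 from 184 CPM in both to 61.6 and 62.4 CPM (-1.57 ± 0.05). LY6E, an interferon-stimulated surface protein, went from 104 and 99.6 to 41.1 and 41.5 CPM (-1.30 ± 0.05) and CD24, a surface glycoprotein, from 86.2 and 88.1 to 28.6 and 24.8 CPM (-1.71 ± 0.06). On the rising side RELN, the secreted protein reelin, went from 428 and 411 to 740 and 748 CPM (0.83 ± 0.04), and TGM2, a transglutaminase, from 79.3 and 88.2 to 158 and 151 CPM (0.89 ± 0.05). The groups did not overlap in these genes, but that was a condition of the rule that named them.

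In the presence of IFN, doxycycline changed many of these genes in the same direction. The 2 comparisons share no library. With IFN, 2302 genes were higher and 2627 lower with doxycycline (22.3% called, 10.4% higher and 11.9% lower; 3109 and 1955 with library totals in place of TMM). Of the 2654 that rose without IFN, 1581 rose with it (59.6%, and 68.7% of those that rose with IFN) and 5 fell. Of the 2815 that fell, 1949 fell with it (69.2 and 74.2%) and 1 rose. Across 13310 genes at 1 CPM or more, Pearson's r between the fold changes was 0.78 and Spearman's rho 0.75, as a description, since genes are not independent replicates. PWP2 changed by -0.79 and -0.47, ALAS2 by 0.70 and 0.44, HMGCS1 by 0.67 and 0.83, and STAT5A by -1.0 and -0.85. The interferon-stimulated list did not keep its direction. With IFN 4 of its 52 tested members rose and 17 fell (median -0.16), against 15 and 4 without IFN (0.12). The effect was called more positive without IFN for 5 of the 52 and more negative for 0.

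**Figure D4:**
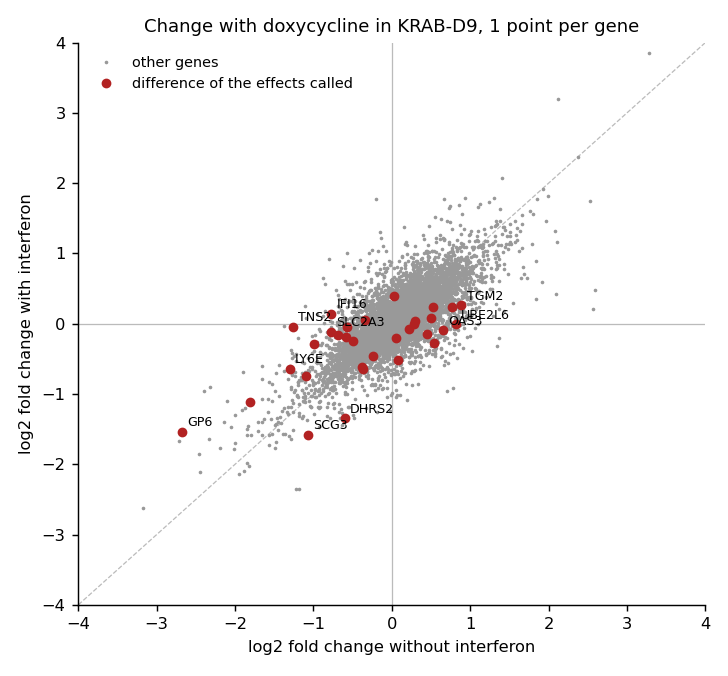
Log2 fold change with doxycycline with IFN (vertical) against without IFN (horizontal) for 13310 genes at a mean of 1 CPM or more over the 4 libraries without IFN; filled points are the 32 of them whose difference passed an adjusted p of 0.05, and the dashed line marks equal change. LY6E lies at -1.30 without and -0.64 with IFN, and TGM2 at 0.89 and 0.26.

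The difference between the effects without and with IFN was called for 35 genes, 21 more positive and 14 more negative without IFN (0.158% of genes, 0.0948 and 0.0632%; 1987 genes had an unadjusted p under 0.05). TGM2 rose by 0.89 without and 0.26 with IFN (difference 0.62 ± 0.07, adjusted p = 3.7e-06), where IFN alone had it at 179 and 198 and both treatments at 232 and 222 CPM. GMPR, an enzyme of guanine nucleotide recycling, rose from 68.2 and 63.6 to 112 and 114 CPM without IFN and was at 170 and 170 against 207 and 196 CPM with it (0.53 ± 0.07). UBE2L6 rose without IFN and was at 145 and 134 against 142 and 136 CPM with it (0.82 ± 0.10). SCG3, a secretory granule protein, fell in both, from 128 and 134 to 62.2 and 62.0 CPM without IFN and from 205 and 184 to 68.0 and 62.1 CPM with it (0.50 ± 0.08). In the other direction LY6E was at 402 and 447 CPM with IFN alone and 273 CPM in both libraries with both treatments (-0.66 ± 0.07), and SLC2A3, a glucose carrier, fell from 107 and 110 to 63.8 and 63.1 CPM without IFN against 69.9 and 69.8, then 59.1 and 70 CPM with it (-0.66 ± 0.08). ITGA5, the fibronectin receptor chain, fell from 64.0 and 63.4 to 45.0 and 40.6 CPM without IFN, against 54.6 and 57.9, then 54.0 and 55.5 CPM with it (-0.53 ± 0.08). These 7 differences were called in every fit that left out 1 library. The number called was not stable: it ran from 5 to 284 and from 6 to 448 in those fits, both highest without KRAB-D9 IFN replicate 2, which leaves replicate 1 with 32694200 counts, the lowest total of the 18, with 10 and 6 when only the 8 libraries compared were used.

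The activator line, in which doxycycline raised SAMD9 from 59.9 and 61.4 CPM to 974 and 948 CPM in D2000 and 936 and 960 CPM in D6, gave a comparison with other doxycycline groups. In D6 6.6% of genes were called (3.19% higher and 3.41% lower), and in D2000 46.1% (21.9 and 24.2%). Of genes that rose in KRAB-D9, 174 of 2654 rose and 138 fell in D6, and 1425 (53.7%) differed in effect from D6 by test. Of genes that fell, 323 of 2815 fell and 164 rose in D6, and 1415 (50.3%) differed. These genes were picked by the same KRAB-D9 libraries that enter the difference, so both shares are partly set by that choice and describe only. Pearson's r across the 13310 genes was 0.06 with D6 (Spearman's rho 0.13) and 0.38 with D2000 (0.45). The effect in KRAB-D9 was more positive than in D6 for 1690 genes (7.63%) and more negative for 1743 (7.87%), 15.5% of genes in all, and more positive than in D2000 for 4236 (19.1%) and more negative for 2694 (12.2%), 31.3% in all. The D2000 counts turned to 2450 and 4208 with library totals in place of TMM, and the median over all genes from 0.03 to -0.17; the TMM factors of the D2000 libraries were 1.17 and 1.19.

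**Figure D5:**
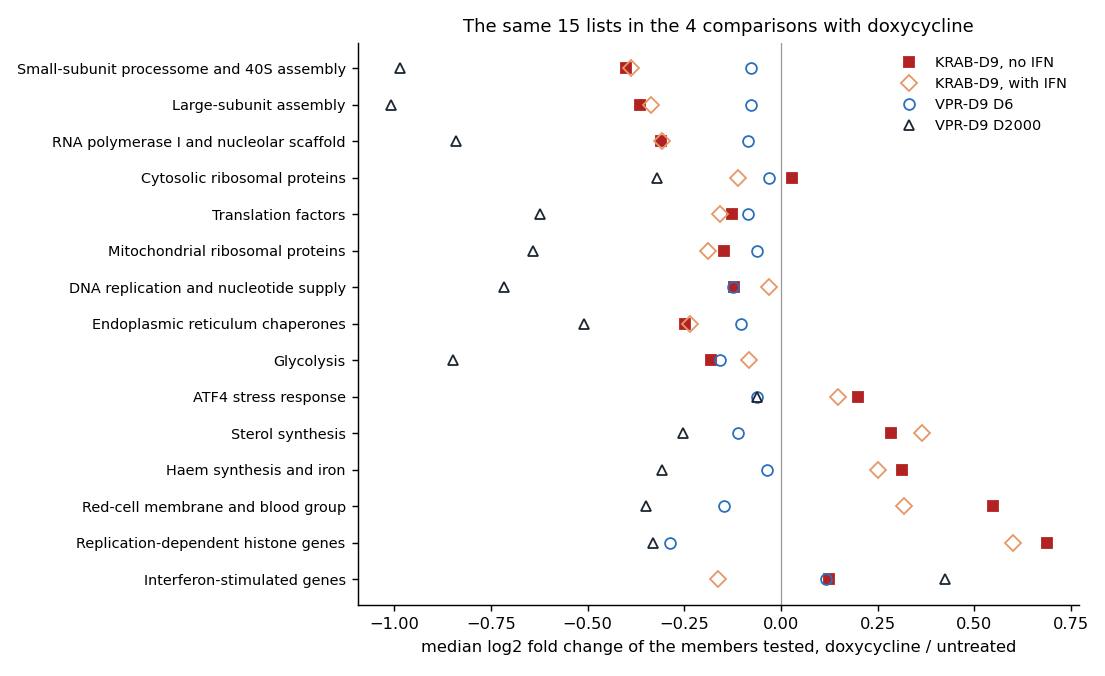
Median log2 fold change with doxycycline of the tested members of 15 gene lists in the 4 comparisons; squares are KRAB-D9 without IFN, diamonds KRAB-D9 with IFN, circles VPR-D9 D6 and triangles VPR-D9 D2000. The small-subunit list is at -0.40, -0.39, -0.08 and -0.99 in that order, and the red-cell list at 0.55, 0.32, -0.15 and -0.35; D6 and D2000 share their control libraries.

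Ribosome assembly genes fell in KRAB-D9 and, more, in D2000. In D6 5 of the 52 small-subunit genes fell and in D2000 50 (medians -0.08 and -0.99), and the effect in KRAB-D9 was more negative than in D6 for 43 and more positive than in D2000 for 48 (43, with 1 more negative, under library totals). MYC showed the same order, at -0.52 in KRAB-D9, 0.08 in D6 and -1.60 in D2000. Red-cell, haem and sterol genes rose in KRAB-D9 and differed from both activator groups. Of 24 red-cell genes, the effect in KRAB-D9 was more positive than in D6 for 15 and than in D2000 for 19; of 26 haem and iron genes for 15 and 18; and of 29 sterol genes for 20 and 22. With library totals the counts against D2000 were 17, 13 and 14, and those against D6 were unchanged in these 3 lists. ALAS2 changed by 0.70, -0.21 and -1.52, PKLR by 1.17, -0.71 and -2.68, ADD2 by 0.94, -0.44 and -2.51, and HMGCS1 by 0.67, -0.25 and -0.85 in KRAB-D9, D6 and D2000. EMP3 and STAT5A fell in KRAB-D9 and were at 0.32 and 0.07 in D6 and -0.10 and -0.57 in D2000. LY6E and VAMP8, a protein of vesicle fusion, fell in KRAB-D9 (-1.30 and -0.72) and rose in D6 (0.86 and 0.75) and D2000 (1.55 and 1.32). Histone H1-2 rose by 0.92 in KRAB-D9 and fell by 0.50 in D6 and by 1.19 in D2000. Lines, constructs and possibly times differ between these groups, and the part of each was not tested.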

How the data were processed

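RNA-seq was made with a stranded poly(A) kit, per the labels' protocols. The deposited table holds raw read counts per gene, made by the authors. The submitters' processing notes list featureCounts 2.0.2, STAR 2.7.8a, cutadapt 2.10 and FastQC 0.11.9, with the build GRCh38.p13. Not given in the sources used here: the annotation release, the strand setting, and what was done with multi-mapped reads. Groups came from the sample titles. Whether a group's 2 libraries stem from separate cultures is not in the labels, so the p-values reflect only how these libraries vary, which may be technical.

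From the counts, a quasi-likelihood model was fitted with edgeR 4.0.16 in R 4.3.3 over all 18 libraries in 9 groups, with TMM scaling, filterByExpr by group and Benjamini-Hochberg adjustment over 22143 genes. It left 9 residual degrees of freedom, and the common biological variation was 0.0569 as a coefficient. All levels given are CPM after TMM scaling. The standard error is the size of the log2 fold change divided by the square root of the F statistic. Differences between doxycycline effects were tested as contrasts of the same fit. Library totals ran from 32694200 to 63037568 counts. Alternatives were DESeq2 1.42.0 size factors, library totals, no filter on low counts, only the compared libraries, leaving out the KRAB-D9 IFN group, DESeq2's Wald test, a replicate block and leaving out each library. Counts were also simulated for 22143 genes, with the spread estimated from the data and 200 genes changed. The changed genes were drawn from those at 1 CPM or more in untreated KRAB-D9, so the recovery rates do not cover lower genes. The fit recovered 97.1% of log2 changes of -2 and 100% of those of 2. It recovered 82.4% of -1 and 84.8% of 1, and 69.7% of -0.5 and 78.8% of 0.5. Of its calls 5.52% were false. Figures were drawn with matplotlib 3.10.9 in Python 3.11.15.

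The members and gene lists were chosen with earlier results of these data known. Genes were named by rule: SAMD9 and SAMD9L, the 15 largest changes and the 15 smallest adjusted p in each direction, the 4 smallest p and members of known function in each list, the 8 smallest p in each direction of each difference, and any member of a list of at most 30. PWP2, EIF2AK4, PPP1R15B, H2BC3, IFI44 and IFI44L fall outside it and were chosen after their values were seen. Some genes that the rule names are not reported here. Promoters came from RefSeq (GRCh38.p14).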

Additional observations from a re-analysis of the deposited data

Results flagged for a closer look

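Some results stood out because the effect of doxycycline differed between groups by a test of the difference itself. Without IFN the effect was more positive than with IFN for 21 genes and more negative for 14. The differences of log2 fold change were 0.62 for TGM2, 0.53 for GMPR, 0.82 for UBE2L6 and 0.50 for SCG3, and -0.66 for LY6E, -0.66 for SLC2A3 and -0.53 for ITGA5. Against VPR-D9 D2000 the effect in KRAB-D9 was more positive for 4236 genes and more negative for 2694. Against VPR-D9 D6 these numbers were 1690 and 1743. LY6E fell in both KRAB-D9 comparisons and rose in both activator groups.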

How the results depend on the processing

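Over the other settings that keep all libraries, counts of genes that rose ran from 2417 to 3162 and of genes that fell from 2368 to 3041; the 4 compared libraries alone gave 2693 and 3254, and leaving out the KRAB-D9 IFN group 2873 and 3168. Leaving out 1 library gave 1929 to 1968 and 2144 to 2288, with IFN 1589 to 2134 and 1929 to 2545, against D2000 3801 to 3977 and 2276 to 2444, and against D6 1280 to 1378 and 1328 to 1454. SAMD9 ran from -7.95 to -2.27. The difference without and with IFN gave 42 and 32 genes with no filter, 10 and 6 with only the compared libraries, 38 and 47 with DESeq2's Wald test, and 5 to 284 and 6 to 448 when 1 library was left out. Against D2000, library totals gave 2450 and 4208; the cause was not tested. Leaving out 1 library gave 10 to 12 respiratory chain genes, 13 to 16 replication genes and 7 to 10 matrix genes that fell. List medians near 0 changed sign: with library totals those of aminoacyl-tRNA synthetases (0.0107), the respiratory chain (0.00212) and G1 genes (0.0251), and that of G1 genes when 1 library was left out, from -0.0387 without untreated replicate 1 to 0.025 without doxycycline replicate 2. Of 207 genes named, 181 were called, 169 of them in every fit that left out 1 of the 4 libraries and 175 under every other setting. Replicate numbers did not pair the libraries (correlation of replicate differences between the 2 groups 0.0034 over 9462 genes), and with a replicate block 2628 genes rose and 2811 fell. Depth limited genes under 1 CPM, where 1.86% rose and 1.68% fell; SAMD9 is one of them.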

Other observations

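The counts of smaller lists in the same 4 libraries stand beside the 12% of all genes that rose and the 12.7% that fell, and several lie near these shares. Of 20 immediate early and AP-1 genes, which respond to growth signals, 9 fell and 3 rose. DUSP5, a phosphatase that limits ERK signalling, went from 3.79 and 6.07 to 1.40 and 1.33 CPM (-1.85 ± 0.27), and JUND, an AP-1 subunit, from 148 and 161 to 94.2 and 92.6 CPM (-0.72 ± 0.10), with no overlap between the groups. The 3 that rose were 0 without doxycycline replicate 1 and 1 without untreated replicate 2. Of 12 genes of polyamine and proline metabolism 4 fell and 2 rose (4 rose with library totals). ODC1, the enzyme that starts polyamine synthesis, went from 833 and 838 to 637 and 652 CPM (-0.37 ± 0.04), and SAT1, which starts their breakdown, from 24.3 and 27.9 to 37.9 and 37.6 CPM (0.54 ± 0.07).

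Of 16 serine and one-carbon enzyme genes 6 rose and 1 fell. ALDH1L2, a mitochondrial folate enzyme, went from 8.28 and 7.78 to 21.5 and 19.2 CPM (1.34 ± 0.12). Of 17 amino acid transporter genes 4 rose and 5 fell (3 without untreated replicate 2), and of 20 genes of G1 cyclins and CDK inhibitors 6 rose and 7 fell. CCNE1, the cyclin that drives entry into S phase, went from 36.4 and 37.8 to 49.8 CPM in both libraries (0.43 ± 0.08). Of 14 heat shock genes 5 fell and 1 rose: HSPA8, the constitutive chaperone, went from 3437 and 3442 to 2832 and 2782 CPM (-0.29 ± 0.03), and the inducible HSPA1A from 213 and 215 to 261 and 268 CPM (0.31 ± 0.05). Of 16 NF-kB targets 3 fell and 0 rose, counts that changed when 1 library was left out. Of 11 lymphoid genes 2 fell and 0 rose. The shares that fell, 18.8 and 18.2%, stand beside 12.7% of all genes tested. At a mean of 1 CPM or more, 2 of 7 NF-kB targets and 2 of 4 lymphoid genes fell, beside 20% of all such genes.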
